A study of Rattus norvegicus with 4 samples.

Results

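The genes described here encode potassium channels, and subunits of them, that carry potassium across the apical or the basolateral membrane of colonic epithelial cells. They were chosen by name, and 9 of the 10 named genes were measured as a row with a single gene symbol, among 19403 rows in all. The 9 were Kcnma1, Kcnmb2, Kcnmb4, Kcnn4, Kcnq1, Kcne3, Kcnk1, Kcnk6 and Kcnj10. Kcnk5, which encodes the pH-sensitive channel TASK-2, has no expression value here because no row carried its symbol, and it appears below only with its promoter. Each of the 9 genes had 1 row, so that no choice between rows was needed. Expression was measured with Affymetrix exon arrays in surface colonocytes, the absorptive cells that face the lumen, from the distal colon of 4 Wistar rats aged 12 weeks. The arrays asked which genes differ between 2 aldosterone-treated rats and 2 vehicle-treated rats, and each rat gave 1 array. Aldosterone rats had a subcutaneous injection of 50 µg per 100 g body weight, and a minipump with aldosterone in polyethylene glycol set to 10 µg/kg per hour. Vehicle rats had an injection of vehicle and a minipump with polyethylene glycol alone. Both groups lacked their adrenal glands, had lived for 4 days after that operation with 0.9% NaCl to drink, and were killed 2 h after treatment began. The cells were shaken off everted colons for 40 min, with 100 nM aldosterone in the solution for the aldosterone rats and vehicle for the vehicle rats. The comparison therefore covers an acute response in animals without adrenal hormones of their own.

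Surface colonocytes of the distal colon absorb sodium through an apical sodium channel and secrete potassium through apical potassium channels. Potassium enters the cell at the basolateral side through the sodium pump and the cotransporter NKCC1. It leaves either to the lumen, as secretion, or back across the basolateral membrane, as recycling that keeps the cell voltage negative. The large-conductance calcium-activated channel BK is the main apical exit in mouse distal colon, where aldosterone is known to increase it. Kcnn4 and the complex of Kcnq1 with Kcne3 are known as basolateral exits that sustain chloride secretion under calcium and cyclic AMP signals.

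Levels below are the deposited log2 values, so that a difference of 1 is a doubling in signal. They depend on the probes of a row and are compared between rats and not between genes. The 4 arrays ran from 1.36 to 13.68, and 65.0% of rows had a mean below 3, near the lowest signals measured. The median over all rows was 2.33 and 2.44 in aldosterone rats and 2.22 and 2.43 in vehicle rats. Differences are aldosterone minus vehicle from limma, with the 95% interval of its moderated fit, over all rows and with a constant prior spread. With 2 rats against 2, an exact two-sided permutation test cannot give a p below 0.333. Known targets of aldosterone stood apart between the groups. Scnn1g, the gamma subunit of the sodium channel, stood at 6.65 and 7.61 in aldosterone rats against 2.05 and 2.03 in vehicle rats. Sgk1, the kinase that keeps that channel at the surface, stood at 12.54 and 12.52 in aldosterone rats against 10.51 and 10.64 in vehicle rats. Tsc22d3 and Per1, known corticosteroid targets, stood higher in both aldosterone rats than in both vehicle rats, by 2.35 and 1.35 on the log2 scale. Fkbp5, another such target, stood at 8.33 and 6.30 in aldosterone rats against 2.29 and 2.30 in vehicle rats, where it was near the floor.

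None of the 9 potassium channel genes passed an adjusted p of 0.05 in limma, where 0 of all 19403 rows (0%) passed and the smallest adjusted p was 0.332. With a prior spread that follows expression level, an intensity trend, 21 rows (0.108%) passed, again without a potassium channel gene. At an unadjusted p under 0.05, 1 of the 9 genes was higher in aldosterone rats, Kcne3, and 0 were lower. Over all rows 2.19% were higher and 2.34% lower at that unadjusted threshold, which is 425 and 454 rows, and 281 and 508 rows after arrays were set to equal medians. Both aldosterone rats lay above both vehicle rats for 3 of the 9 genes, Kcne3, Kcnq1 and Kcnma1, against 16.7% of all rows. Both lay below for 1 gene, Kcnk6, against 11.1% of all rows. The groups overlapped for the other 5. The median difference over the 9 genes was 0.095, beside 0.024 over all rows. It was 0.037 after arrays were set to equal medians, and it turned to -0.10 when vehicle replicate 1 was left out. Leaving out vehicle replicate 2 gave 0.26, aldosterone replicate 1 gave 0.28 and aldosterone replicate 2 gave 0.057.

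**Figure D1:**
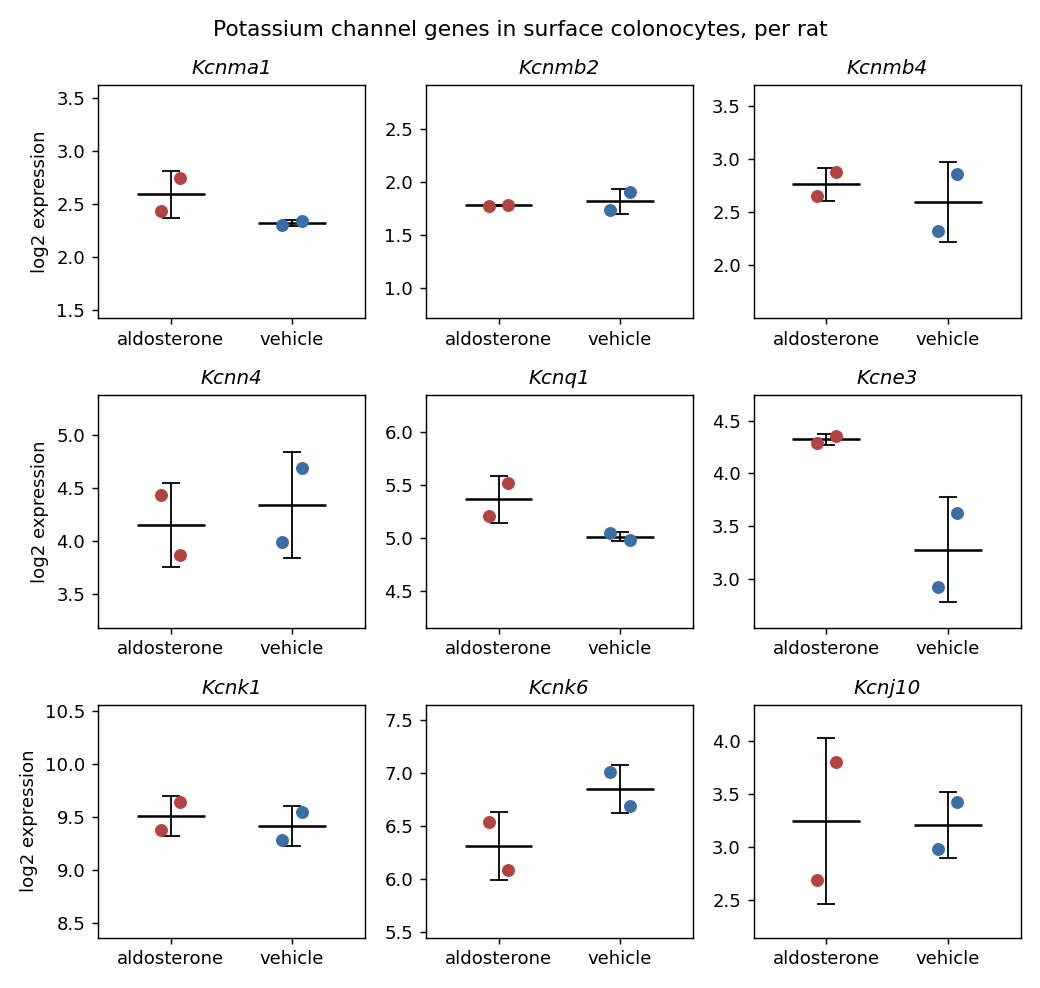
Log2 expression (y axis, each panel spanning the same number of log2 units) of the 9 potassium channel genes in aldosterone rats (red) and vehicle rats (blue), with 1 point per rat; black lines and bars give the mean and SD of the 2 rats. The groups stand apart for Kcne3, Kcnq1, Kcnma1 and Kcnk6, and the gap between rats of 1 group is widest for Kcnj10 in aldosterone rats, at 1.11.

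Kcne3 encodes a small membrane protein that binds Kcnq1 and holds that channel open, so that it conducts potassium at resting voltage. Its row (7034549) stood at 4.29 and 4.36 in the aldosterone rats, against 2.93 and 3.63 in the vehicle rats. The aldosterone rats were close to each other, while the vehicle rats lay 0.70 apart. The group means were 4.32 ± 0.050 in aldosterone rats and 3.28 ± 0.50 in vehicle rats (SD, n = 2 each). The difference was 1.04 on the log2 scale (limma, 95% interval 0.32 to 1.77, unadjusted p = 0.0159, adjusted p = 0.886), or 2.06-fold with an interval from 1.25 to 3.40-fold. By unadjusted p it ranked 349th among all rows, in the first 1.80%. With the intensity trend its adjusted p was 0.524, the lowest of its alternatives, which reached 1.00, and neither fit called it. Vehicle replicate 1 had the lowest value, at 2.93, on the array with the lowest median over all rows. Values below 3 are near the lowest signals here, so that the fold is uncertain. Without that rat the difference was 0.69, and with vehicle replicate 2 left out it was 1.39. With all 4 rats it was 0.98 after arrays were centred on their medians and 1.02 after quantile normalization. Kcne3 stood higher in the aldosterone rats whichever rat was left out, which follows from groups that do not overlap.

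Kcnq1 encodes the pore that Kcne3 modifies in colonic crypts. It stood at 5.21 and 5.52 in aldosterone rats, against 5.05 and 4.99 in vehicle rats. Both aldosterone rats lay above both vehicle rats, and the vehicle rats differed by only 0.060. The difference was 0.35 (limma, interval -0.053 to 0.75, unadjusted p = 0.0738, adjusted p = 1.00), a 1.27-fold difference in signal with an interval from 0.964 to 1.68-fold. With the intensity trend the interval widened to -0.32 to 1.02. The gap between the aldosterone rats, 0.31, was nearly as large as the difference between groups. The difference was 0.51 with aldosterone replicate 1 left out and 0.19 with aldosterone replicate 2 left out. Of the other accessory subunits of this family, Kcne4 stood at 2.16 and 2.32 in aldosterone rats against 1.96 and 1.82 in vehicle rats (unadjusted p = 0.0439 and adjusted p = 1.00 in limma). All 4 values of Kcne4 lay below the median over all rows of their own array.

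The genes' 300-base promoter windows, from 250 bases before to 50 after the start site, were read from RefSeq for GRCr8, where 6 of the 10 named genes matched: Kcnma1, Kcnmb2, Kcnmb4, Kcnj10, Kcne3 and Kcnk5. They were searched on both strands for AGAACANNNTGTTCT, the palindrome that steroid receptors of this class bind, and for its arms alone, AGAACA or TGTTCT. The whole palindrome was in 0 of the 6 windows and in 0.0149% of all 33469 windows. An arm was in 1 of the 6, that of Kcnmb4, and in 20.7% of all windows. The GC box GGGCGG or CCGCCC was in 5 of the 6, all but Kcnmb2, and in 33.1% of all. None of the windows of Scnn1g, Sgk1, Tsc22d3, Fkbp5 and Per1 held the palindrome or an arm. Such matches are letters only and were not tested as binding sites. The window of Kcne3 is shown because it had the largest difference, and that of Kcnmb4 because it held the arm while its rats overlapped. Capitals mark the GC boxes in Kcne3, which start 126 and 76 bases before the start site (chr1:163935785-163936084, plus strand), and the arm in Kcnmb4, which starts 134 bases before it (chr7:54005052-54005351, minus strand).
Kcne3: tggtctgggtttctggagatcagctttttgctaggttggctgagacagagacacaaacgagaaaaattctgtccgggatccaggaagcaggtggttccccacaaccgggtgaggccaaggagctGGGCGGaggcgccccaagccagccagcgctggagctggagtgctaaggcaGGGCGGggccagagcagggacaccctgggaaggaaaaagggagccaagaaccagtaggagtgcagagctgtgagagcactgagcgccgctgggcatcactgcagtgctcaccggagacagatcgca
Kcnmb4: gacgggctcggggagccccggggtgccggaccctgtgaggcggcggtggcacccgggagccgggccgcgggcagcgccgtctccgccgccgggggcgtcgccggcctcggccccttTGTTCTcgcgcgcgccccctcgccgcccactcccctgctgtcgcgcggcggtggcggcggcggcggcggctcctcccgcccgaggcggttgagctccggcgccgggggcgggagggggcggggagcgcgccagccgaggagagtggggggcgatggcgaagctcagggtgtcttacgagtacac

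Kcnma1 encodes the pore of BK. Its row stood at 2.43 and 2.75 in aldosterone rats, against 2.30 and 2.34 in vehicle rats. The groups did not overlap, and aldosterone replicate 2 was set apart from the other rats. The difference was 0.27 (limma, interval -0.13 to 0.68, unadjusted p = 0.132, adjusted p = 1.00). It came to 0.12 when aldosterone replicate 2 was left out, and was 0.43 when aldosterone replicate 1 was. In vehicle replicate 2 the value lay below the median over all rows of that array, so that these levels are close to the floor and no fold is given.

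The auxiliary subunits of BK were also at low levels. Kcnmb4, a beta subunit that slows the gating of BK in neurons, stood at 2.65 and 2.88 in aldosterone rats against 2.33 and 2.86 in vehicle rats. The groups overlapped (difference 0.17, interval -0.45 to 0.79). Kcnmb2, a beta subunit that makes BK inactivate, stood at 1.78 and 1.79 in aldosterone rats against 1.74 and 1.91 in vehicle rats. All 4 values of Kcnmb2 lay below the median over all rows of their own array, and their difference was -0.037 (interval -0.35 to 0.27). The remaining beta subunits are named here after their values were seen. Kcnmb1, the beta subunit of smooth muscle BK, stood at 2.76 and 3.02 in aldosterone rats against 2.34 and 2.67 in vehicle rats, and Kcnmb3 at 2.54 and 2.69 in aldosterone rats against 2.15 and 2.39 in vehicle rats. Their groups did not overlap, with differences of 0.38 and 0.35 and an adjusted p of 1.00 for both in limma. Vehicle replicate 1 had the lowest value in Kcnma1 and in each of the 4 beta subunit rows, and it also had the lowest median over all rows. The part of that array-wide level in these differences was not tested, but with arrays centred on their medians the difference of Kcnma1 was 0.22 and that of Kcnmb4 0.11.

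Lrrc26 encodes a gamma subunit that lets BK open at resting voltage and, in mouse colon, is a gene of goblet cells. It was named after its values were seen. It stood at 5.25 and 6.85 in aldosterone rats, against 5.24 and 5.92 in vehicle rats. The groups overlapped and the rats of a group differed more than the groups did, with a difference of 0.47 (interval -1.22 to 2.16). The goblet marker Tff3 was lower in the aldosterone rat with the lower Lrrc26, at 9.44 and 11.30 in aldosterone rats. In vehicle rats the order was the opposite, with Tff3 at 11.12 and 10.74, higher in the rat with the lower Lrrc26. Agr2, another goblet marker, stood at 7.69 and 8.52 in aldosterone rats against 7.89 and 7.91 in vehicle rats. Over the 3 measured goblet markers of 6 listed, the mean level was 6.35 and 7.26 in aldosterone rats and 6.93 and 6.84 in vehicle rats. The part of goblet cells in the spread of Lrrc26 was not tested. In these bulk samples, fewer cells of a type and less RNA per cell cannot be told apart.

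Kcnn4 encodes the intermediate-conductance channel that calcium opens through calmodulin. It stood at 4.44 and 3.87 in aldosterone rats, against 3.99 and 4.69 in vehicle rats. The groups overlapped, the lowest value being an aldosterone rat and the highest a vehicle rat. The difference was -0.19 (interval -1.10 to 0.72, unadjusted p = 0.596 in limma), and it turned positive without vehicle replicate 2 (0.16) or without aldosterone replicate 2 (0.094). As a fold, the interval ran from 0.468 to 1.64.

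Kcnk6 encodes TWIK-2, a background channel of the tandem-pore family. It was the only gene of the 9 for which both aldosterone rats lay below both vehicle rats, at 6.54 and 6.08 in aldosterone rats against 7.01 and 6.68 in vehicle rats. The nearest values of the groups were 6.54 and 6.68, closer to each other than the rats of either group. The group means were 6.31 ± 0.32 in aldosterone rats and 6.85 ± 0.23 in vehicle rats (SD, n = 2 each). The difference was -0.54 (limma, interval -1.14 to 0.060, unadjusted p = 0.0673, adjusted p = 1.00), or 0.689-fold. It ran from -0.77 to -0.31 with 1 rat left out, and its sign could not turn because the groups did not overlap.

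Kcnk1 encodes TWIK-1, the founding member of the tandem-pore family. It stood at 9.37 and 9.64 in aldosterone rats, against 9.28 and 9.55 in vehicle rats. In each group the rat numbered 2 was higher by 0.27, and the groups overlapped. The difference was 0.095 (interval -0.35 to 0.54, unadjusted p = 0.591 in limma), and as a fold this interval ran from 0.783 to 1.46. With the intensity trend the interval widened to -0.44 to 0.63. Leaving out vehicle replicate 1 gave -0.040, and leaving out aldosterone replicate 2 gave -0.038.

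Kcnj10 encodes the inward rectifier Kir4.1, known from glial cells and from the basolateral membrane of the distal nephron. It stood at 2.69 and 3.80 in aldosterone rats, against 2.98 and 3.43 in vehicle rats. Both the lowest and the highest value were aldosterone rats, and the difference of 0.038 had the widest interval of the 9 genes, -1.14 to 1.22. Leaving out 1 rat moved it between -0.52 and 0.59. Glial and neuronal markers, 4 of 6 measured, averaged 2.39 and 2.61 in aldosterone rats and 2.06 and 2.48 in vehicle rats, and none had a mean of 4 or more.

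**Figure D2:**
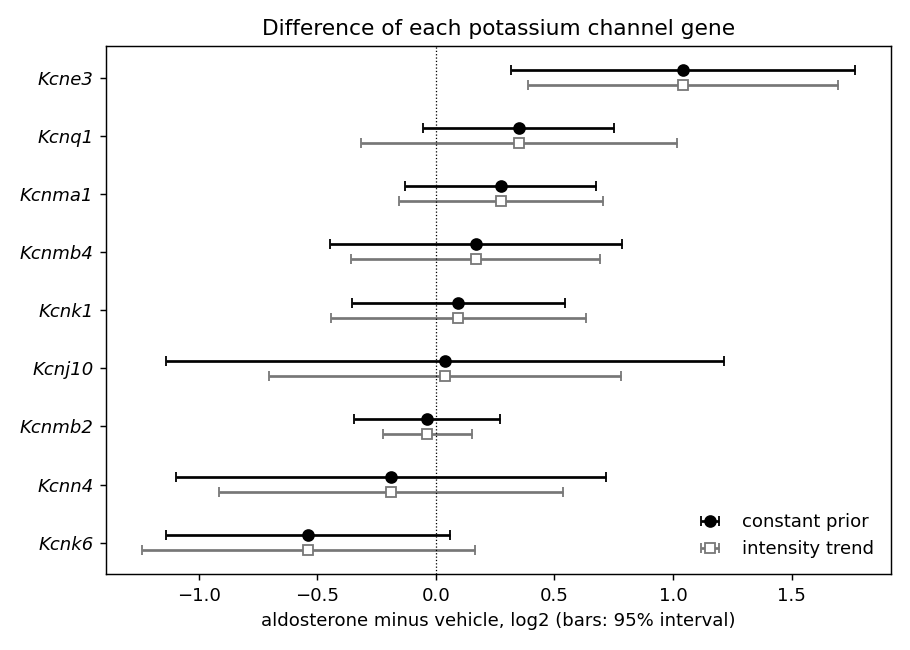
Difference aldosterone minus vehicle in log2 units (x axis) for each of the 9 genes, with 95% intervals from limma with a constant prior (filled circles) and with the intensity trend (open squares). The intervals of Kcne3, 0.32 to 1.77 and 0.39 to 1.69, lie above 0, and those of the other 8 genes include 0.

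**Figure D3:**
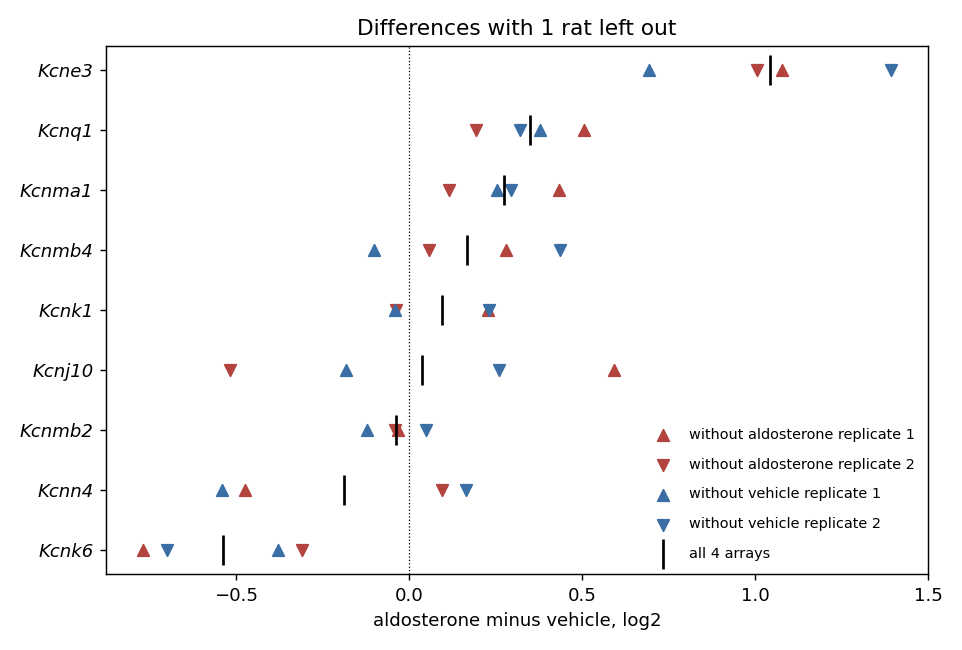
The same differences with all 4 arrays (black bars) and with 1 rat left out (triangles, red for an aldosterone rat and blue for a vehicle rat). Kcne3, Kcnq1 and Kcnma1 stay above 0 and Kcnk6 below 0, whereas Kcnmb4, Kcnk1, Kcnj10, Kcnmb2 and Kcnn4 fall on both sides. For Kcne3, Kcnq1, Kcnma1 and Kcnk6 the groups do not overlap, so leaving out 1 rat cannot turn the sign.

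The 70 other measured genes with a symbol beginning with Kcn, which include pore, accessory and channel-interacting proteins, were mostly near the floor. Of these, 66 had a mean below 3 and 1 had a mean of 4 or more, Kcnk12, a tandem-pore gene at 4.70 and 4.94 in aldosterone rats against 4.41 and 4.86 in vehicle rats. Among the 9 colonic genes, 6 had a mean of 3 or more and 4 had a mean of 4 or more. Of the 70, 0 passed the adjusted threshold in limma or with the intensity trend, and 1, Kcne4, had an unadjusted p under 0.05. Their differences ran from -0.34 to 0.38 with a median of 0.064, and 56 were positive. Of the 66 with a mean below 3, 52 were positive, beside 8104 of 12609 rows with a mean below 3 over the whole array. Both aldosterone rats lay above both vehicle rats for 13 of the 70, against 16.7% of all rows, and below for 3, against 11.1%. Among all 79 measured Kcn genes, Kcne3 had the highest difference and Kcnk6 the lowest. This order sets genes of different levels side by side.

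**Figure D4:**
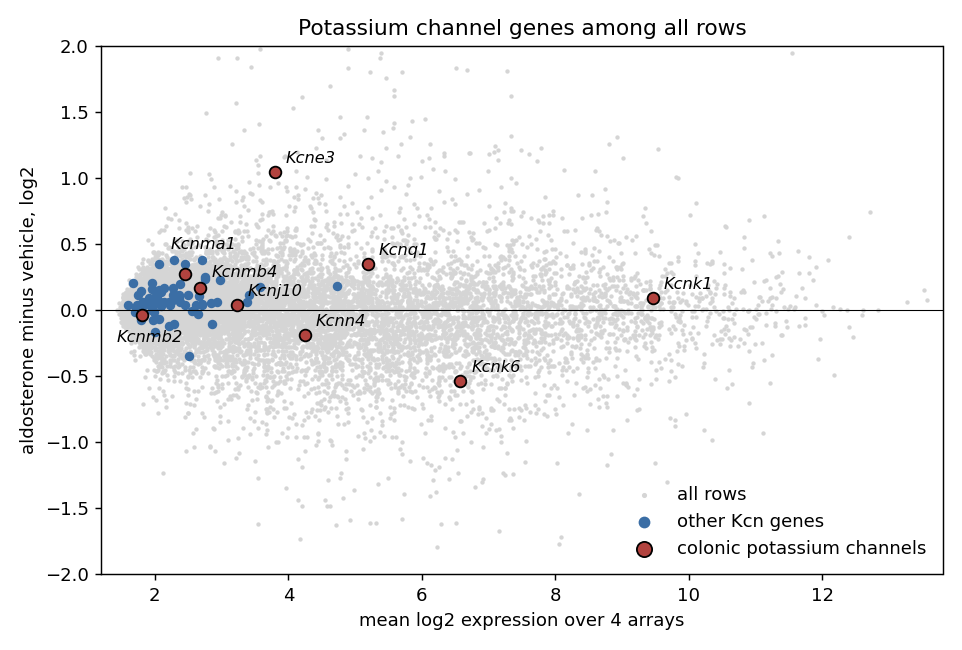
Difference aldosterone minus vehicle (y axis, log2) against the mean over 4 arrays (x axis, log2) for the 9 colonic potassium channel genes (red, named), 70 other Kcn genes (blue) and all rows (grey; 21 rows beyond a difference of 2 in either direction are not drawn). Kcne3 and Kcnk6 lie outside the range of the other Kcn genes, -0.34 to 0.38. Of those 70 genes, 66 had a mean below 3, lower than Kcne3 and Kcnk6, so the range is mostly that of rows near the floor.

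Proteins that regulate these channels or bind them were 15 measured of 20 listed, and none passed the adjusted threshold in limma. The list had 12 positive differences and a median of 0.15, where 11314 of all 19403 rows were positive. At an unadjusted p under 0.05, 1 gene was higher, against 2.19% of all rows. That gene was Sgk1, already shown above as a known target. Its adjusted p in limma was 0.000558 with the intensity trend, 0.332 with the constant prior and 0.629 with the replicate block. Both aldosterone rats lay above both vehicle rats for 6 of the 15 genes, against 16.7% of all rows. They lay below for 0, against 11.1%. Nme2, a histidine kinase that activates Kcnn4, stood at 5.45 and 4.81 in aldosterone rats against 3.34 and 4.63 in vehicle rats. Stk39, the kinase SPAK that activates NKCC1, stood at 5.78 and 7.36 in aldosterone rats against 5.43 and 5.44 in vehicle rats. In both genes the groups did not overlap, and 1 rat lay far from the other of its group. The differences were 1.14 (interval -0.27 to 2.55) and 1.13 (interval -0.41 to 2.68), with an adjusted p of 1.00 for both in limma. Nme2 differed by 0.50 without vehicle replicate 1 and by 1.79 without vehicle replicate 2. Stk39 differed by 1.93 without aldosterone replicate 1 and by 0.34 without aldosterone replicate 2.

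The transporters that load the cell with potassium, and the chloride secretion they serve, were 13 measured of 16 listed, with a median difference of 0.28. Of these, 3 were higher, against 2.19% of all rows, and 1 lower, against 2.34%, at an unadjusted p under 0.05. In all, 0 passed the adjusted threshold in limma. Slc12a2, which encodes NKCC1, stood at 6.33 and 6.33 in aldosterone rats against 4.66 and 4.17 in vehicle rats. It was the only one of the 13 to pass with the intensity trend (difference 1.91, adjusted p = 0.0494), and its adjusted p was 0.438 with the constant prior, within alternatives up to 0.988. Fxyd4, a regulator of the sodium pump, stood at 9.79 and 10.91 in aldosterone rats against 8.08 and 8.56 in vehicle rats. Best2, an anion channel gene, stood at 3.08 and 3.95 in aldosterone rats against 2.02 and 2.02 in vehicle rats. Slc12a4, which encodes the potassium-chloride exit cotransporter KCC1, stood at 3.31 and 2.91 in aldosterone rats against 3.56 and 3.70 in vehicle rats, a difference of -0.52 (unadjusted p = 0.0387, adjusted p = 1.00 in limma). The groups of these 4 genes, which were named for their unadjusted p, did not overlap. Both aldosterone rats lay above both vehicle rats for 7 of the 13 genes, against 16.7% of all rows. They lay below for 1, against 11.1%.

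Markers put these samples with surface epithelium. Epcam, Cdh1 and Krt8 lay between 10.80 and 11.81 in all 4 rats, and the 6 measured surface colonocyte markers of 8 listed averaged 10.85 and 10.10 in aldosterone rats and 9.61 and 10.04 in vehicle rats. Slc9a3 was the lowest of these markers in every rat, at 8.39 and 3.44 in aldosterone rats against 2.48 and 3.99 in vehicle rats. It therefore lowers all 4 of these averages, least in the first. The anion exchanger Slc26a3 stood at 12.75 and 12.61 in aldosterone rats against 11.96 and 12.30 in vehicle rats (unadjusted p = 0.0254, adjusted p = 0.948 in limma). It was the only measured surface marker with an unadjusted p under 0.05. The groups overlapped for Car4, Guca2a and Slc9a3. They did not for Aqp8 and Krt20, which were higher in aldosterone rats, with differences of 0.29 and 0.067. The part of surface cell content in the differences of Kcne3 and Kcnq1 was not tested. Across 9 lists for crypt, enteroendocrine, tuft, smooth muscle, fibroblast, nerve and glia, Cajal, endothelial and immune cells, 0 of 28 measured markers had a mean of 4 or more. They ran from 1.73 to 4.19 in aldosterone rats and from 1.62 to 3.60 in vehicle rats. Of the goblet markers, 2 of the 3 measured, Tff3 and Agr2, had a mean of 4 or more.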

How the data were processed

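The authors deposited log2 expression values, 1 per row and array, for 4 arrays, where a row gathers the probes of a transcript. Per the submitters' processing notes, the tools were Partek, Affymetrix Expression Console and RMA, whose versions and order are unstated. The log2 scale was read from the range of the values. The sources used here name no genome build and no detection calls. Rows were named through the platform annotation: 13327 had 1 symbol, 620 several and 5456 none, and the Entrez IDs of all 9 measured genes matched their symbols in RefSeq. From these values aldosterone was compared with vehicle over all 19403 rows in limma 3.58.1 (R 4.3.3, lmFit and eBayes, treatment as the only term, two-sided), with Benjamini-Hochberg adjustment across them. The fits were tested on simulated data. Lists are described by counts and medians without a test. Named are the channel genes, the corticosteroid targets, and in each list the genes with an unadjusted p under 0.05, filled up to 3 from those with a mean of 4 or more. Others are marked where they appear, and markers serve as checks. The channel genes and lists were chosen with earlier results of these data known. Alternatives were 2 scalings, 3 filters on low rows, the replicate number as a block, each array left out, an intensity trend and a robust prior. Tables and plots used Python 3.11.15, pandas 2.3.3 and matplotlib 3.10.9. The number of arrays limits the precision.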

Additional observations from a re-analysis of the deposited data

How the results depend on the processing

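No potassium channel gene passed an adjusted p of 0.05 in limma under any alternative run. Over all rows the count of 0 became 1 with rows below the median mean left out, 1 with only rows of mean 3 or more kept and 21 with the intensity trend. It was 0 with either scaling, with the robust prior, with rows below the 25th percentile of means left out, and in each fit without 1 rat. The median difference of the 9 genes, 0.095, was 0.081 after quantile normalization and 0.037 after centring, and ran from -0.10 to 0.28 with 1 rat left out. Of 103 recomputed differences of single genes, 94 kept their sign and 9 did not, and the cause was not tested. Many of these signs were bound to stay. The filters, the replicate block, the intensity trend and the robust prior leave a difference unchanged. Leaving out 1 rat cannot turn the sign of Kcne3, Kcnq1, Kcnma1 or Kcnk6. The count is therefore no measure of stability. With arrays centred, Kcnj10 lay at -0.019. With 1 rat left out, the differences ran from -0.52 to 0.59 for Kcnj10, from -0.54 to 0.16 for Kcnn4, from -0.040 to 0.23 for Kcnk1, from -0.10 to 0.44 for Kcnmb4 and from -0.12 to 0.048 for Kcnmb2. Such fits assume that the lone rat of a group varies like the other group. Filters removed Kcnmb2 in all 3 cases, and Kcnma1 and Kcnmb4 at a mean of 3. The replicate block called 0 rows and 0 channel genes. The median was bound to stay at 0.095, because the groups are balanced in that block. Under it Kcnk6 had an unadjusted p of 0.0113 and an adjusted p of 0.641 in limma, the lowest of its alternatives, which reached 1.00. The labels do not say that equal numbers pair rats, and the deviations of equally numbered rats correlated at 0.148 over all rows. Averaging the rows of a gene was not run, because each measured gene had 1 row.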
